A study of Mus musculus with 4 samples.

Results

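The genes of the major histocompatibility complex (MHC) and of the natural killer (NK) cell receptors were followed in an array comparison of genomic DNA. They were taken by name, as every autosomal gene that the array's design calls H2- followed by any text or Klr followed by a small letter. The rule found 31 of the 20445 autosomal genes, 17 with an H2- name and 14 with a Klr name, and 56 of the 52385 autosomal probes. All 56 probes gave a value on all 4 arrays. Most of the genes rest on few probes, since 17 had 1 probe, 9 had 2 probes and 5 had 3 or more, up to 8 for Klra22.

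The DNA came from liver cells of mice whose label, TAK1LPC-KO_RIP3-_-, gives a knockout of TAK1 in liver parenchymal cells together with loss of RIP3. TAK1 is a kinase of TNF receptor and NF-kB signalling, and RIP3 is a kinase of necroptosis. There was 1 group of 4 samples, each labelled with Cy5 and hybridised on an array of its own against the same Cy3-labelled pool of 4 normal livers. Replicates 1 and 2 shared a slide, and replicates 3 and 4 shared another. The driver of the knockout, the strain, sex and age of the mice, their treatment and whether the samples came from separate animals are not given in the sources used here. The p-values thus rest on the variation among these 4 samples alone, which could be technical, and the variation among normal livers does not enter them. Since the pool was the only control and the dyes were not swapped, genotype, dye and any other difference between samples and pool cannot be told apart. The DNA was extracted from sections of fixed tissue. In such bulk DNA a change in some of the cells and a smaller change in all of them cannot be told apart.

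As background, class I MHC molecules present peptides to CD8 T cells and are read by NK cells, while class II molecules present peptides to CD4 T cells. The mouse MHC is called H2 and lies on chromosome 17. NK cells carry C-type lectin-like receptors, encoded in the NK gene complex on chromosome 6, which inhibit or activate the cell when they bind class I molecules or related ligands. Both families vary between inbred mouse strains in sequence and, for the class I and Ly49 genes, in gene number.

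Not every name of the rule stands for an MHC chain or an NK receptor. Of the 31 names, 27 are current symbols in the RefSeq table of assembly GRCm38 and 4 are synonyms there. H2-Ke2 is a synonym of the prefoldin subunit gene Pfdn6, and Klraq1 is a synonym of Ppp1r21 and lies on chromosome 17. H2-Ke6 encodes a hydroxysteroid dehydrogenase. H2-Ea-ps is a synonym of H2-Ea, and Klra22 is a synonym of Klra1, one of the Ly49 genes. No probe carried the names H2-K1, H2-D1, H2-L, H2-Aa, Klra8 or Klra1, so the classical class I genes were not analysed here.

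The probes named Klra22 carried the widest spread of any of the 31 genes and are printed first, in order of position on mouse build mm9. The letters are those of the scanner files, 5′ to 3′, with G and C in capitals. Base composition is marked because, over all 52385 autosomal probes, GC content and mean log2 ratio had a Spearman correlation of -0.14, a description across probes of the same 4 arrays. Their strand on mm9 was not checked here.
Klra22 probe 1, chr6:129999160-129999219: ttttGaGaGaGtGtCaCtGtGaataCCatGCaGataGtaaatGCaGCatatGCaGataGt
Klra22 probe 2, chr6:130020705-130020763: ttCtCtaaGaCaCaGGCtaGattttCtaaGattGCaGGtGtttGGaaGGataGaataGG
Klra22 probe 3, chr6:130146698-130146757: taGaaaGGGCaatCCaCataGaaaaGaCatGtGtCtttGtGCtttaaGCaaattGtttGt
Klra22 probe 4, chr6:130179228-130179287: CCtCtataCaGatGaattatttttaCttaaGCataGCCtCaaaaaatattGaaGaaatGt
Klra22 probe 5, chr6:130212984-130213031: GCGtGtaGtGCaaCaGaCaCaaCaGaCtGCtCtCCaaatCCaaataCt
Klra22 probe 6, chr6:130239036-130239095: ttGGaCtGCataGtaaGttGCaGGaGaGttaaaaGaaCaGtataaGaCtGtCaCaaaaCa
Klra22 probe 7, chr6:130261207-130261266: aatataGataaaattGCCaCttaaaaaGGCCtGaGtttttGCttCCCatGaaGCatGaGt
Klra22 probe 8, chr6:130328573-130328632: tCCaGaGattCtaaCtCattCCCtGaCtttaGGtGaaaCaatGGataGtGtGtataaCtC

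The probes of the genes farthest from the pool with an MHC or NK receptor role are printed likewise.
H2-M10.1 probe, chr17:36460645-36460704: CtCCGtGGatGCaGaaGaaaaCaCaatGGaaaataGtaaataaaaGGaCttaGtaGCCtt
H2-T10 probe, chr17:36255895-36255941: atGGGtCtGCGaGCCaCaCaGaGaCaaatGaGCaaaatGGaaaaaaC
H2-Oa probe, chr17:34230824-34230870: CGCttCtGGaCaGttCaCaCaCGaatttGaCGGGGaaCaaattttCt
Klrb1f probe 1, chr6:129001155-129001214: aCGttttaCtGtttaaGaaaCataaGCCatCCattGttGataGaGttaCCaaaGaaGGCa
Klrb1f probe 2, chr6:129005227-129005286: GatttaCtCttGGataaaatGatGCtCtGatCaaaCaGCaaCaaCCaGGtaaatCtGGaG

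Each value below is the log2 ratio of the sample's processed signal over the pool's, averaged over the probes of a gene and centred on each array's autosomal median. A value of 0 means the same ratio as the middle of the autosomes. A gene was past the threshold when limma's test against 0 gave a Benjamini-Hochberg adjusted p under 0.05 over all 20445 genes and the mean lay at least 0.25 from 0. The 4 arrays limit the precision, and an exact sign-flip test cannot give a 2-sided p below 0.125 with them. Signals well above background were found at 84.3% to 89.9% of spots for the samples and at 94.4% to 97.7% for the pool. The spread between neighbouring probes was outside the scanner software's accepted range on all 4 arrays, at 0.376 to 0.417.

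Of the 31 genes, 15 were past the threshold, 7 higher and 8 lower in the samples than in the pool. That is 48.4%, beside 35.4% of all autosomal genes (16.1% higher and 19.3% lower). With so large a background, passing the threshold does not set a gene apart. All 15 had 1 sign on all 4 arrays, but a test of the mean against 0 on these same values favours such genes, so this adds no support. The median over the 31 genes was 0.02, beside -0.01 over all autosomal genes, and the median distance from 0 was 0.27 beside 0.20. The share differed with the number of probes. Of the 17 genes with 1 probe 35.3% passed, beside 41.8% of all such autosomal genes, and of the 14 with more probes 64.3% passed, beside 30.7%. Among the genes with more probes, Klrb1f alone kept its call under all 14 processing alternatives. Without H2-Ke2, H2-Ke6 and Klraq1, an alternative chosen after seeing the data, 13 of 28 genes passed, 7 higher and 6 lower.

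**Figure D1:**
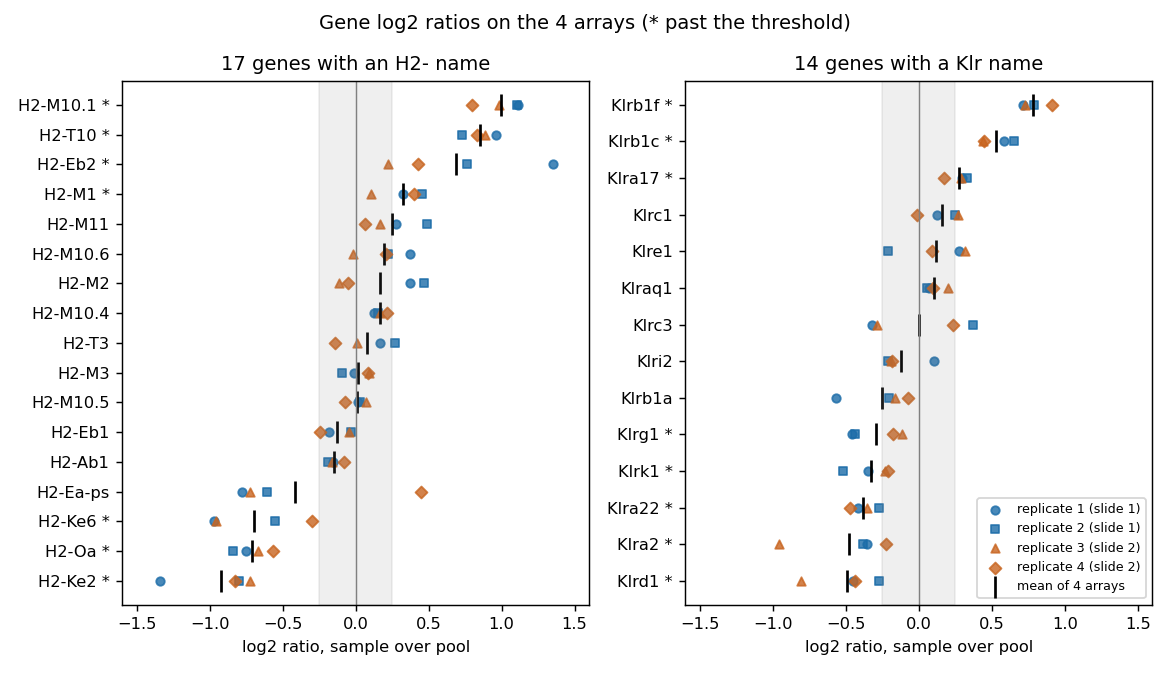
Log2 ratio of sample over pool (x axis) for each of the 17 H2 genes (left) and 14 Klr genes (right), with 1 point per array, colour and shape giving the replicate and slide, a black bar at the mean of the 4 arrays, and grey shading within 0.25 of 0. The 15 starred genes are past the threshold, and their 4 points lie on 1 side of 0, from H2-M10.1 at 1.00 down to H2-Ke2 at -0.92.

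Among the 10 class Ib genes, which encode class I-like chains with few alleles and narrow roles, 3 were higher and none was lower, 30.0% beside 35.4% of all autosomal genes. Means of the 10 genes ran from 0.01 to 1.00 with a median of 0.18, and those of H2-T3, H2-M3 and H2-M10.5, all near 0, took the other sign under some alternatives. H2-M10.1 belongs to the M10 genes, which are known for expression with pheromone receptors in vomeronasal neurons. Its ratios were 1.11, 1.11, 0.98 and 0.80 on replicates 1 to 4, so all 4 arrays gave about the same high value. The mean was 1.00 ± 0.15 (SD, n = 4; limma, adjusted p = 0.00087), a ratio of 2.00 to the pool. This was the highest mean of the 31 genes, and it rests on 1 probe that was well above background in both channels on every array.

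The other M10 genes on the array were much closer to the pool. H2-M10.6 gave 0.20 ± 0.16, H2-M10.4 gave 0.17 ± 0.04 and H2-M10.5 gave 0.01 ± 0.06 (each SD, n = 4; limma, adjusted p = 0.0948, 0.0676 and 0.917). H2-M10.6 was past the threshold with the GC correction, at 0.29, and with the regional median removed, at 0.26 (limma, adjusted p = 0.0305 and 0.0458). Each of these was measured with 1 probe. The difference between H2-M10.1 and its relatives is therefore one between single probes within 1 family.

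H2-T10 encodes a class Ib chain known as a ligand of some gamma-delta T cell receptors, and the GRCm38 table lists it as a transcribed pseudogene. Its ratios were 0.96, 0.72, 0.89 and 0.83. Again the arrays lay close together and none overlapped 0. The mean was 0.85 ± 0.10 (SD, n = 4; limma, adjusted p = 0.000891), from 1 probe. H2-T3, which encodes the thymus leukaemia antigen and is a neighbour of H2-T10 on the array, gave 0.16, 0.27, 0.01 and -0.14 and was not past the threshold (mean 0.08 ± 0.18; limma, adjusted p = 0.51). With the GC correction, added after seeing the data, it was past the threshold at 0.34 (limma, adjusted p = 0.0292), and H2-T10 was at 1.11.

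H2-M1, another gene of the vomeronasal group, completed the class Ib genes past the threshold. Its 3 probes gave a gene value of 0.32, 0.46, 0.10 and 0.40, with replicate 3 the lowest. The mean was 0.32 ± 0.16 (SD, n = 4; limma, adjusted p = 0.02). Its probes did not move as 1: those starting at 36807652 and 36808208 gave 0.41 ± 0.14 and 0.60 ± 0.34, and the last, at 36808606, gave -0.04 ± 0.19. These 3 probes lie within chr17:36807652-36808665, close together on the chromosome. The call of H2-M1 was lost without replicate 1, 2 or 4, with slide means as 2 samples and with another background correction.

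H2-M11, H2-M2 and H2-M3 complete the class Ib genes. H2-M11 gave 0.25 ± 0.18 and narrowly missed the adjusted p (limma, adjusted p = 0.0569). It passed with the regional median removed, at 0.31 (limma, adjusted p = 0.0332). H2-M2 was at 0.37 and 0.47 on replicates 1 and 2 and at -0.11 and -0.05 on replicates 3 and 4, so its 2 slides did not overlap. H2-M3, which presents peptides with an N-formyl group, gave 0.02 ± 0.09.

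Of the 5 genes of class II chains, 1 was higher and 1 was lower, 40.0% beside 35.4% of all autosomal genes. H2-Oa encodes a chain of the DO molecule, which modulates peptide loading of class II in B cells. Its ratios were -0.76, -0.84, -0.67 and -0.57. All 4 arrays were low, and the mean of -0.71 ± 0.12 (SD, n = 4; limma, adjusted p = 0.00152) was the lowest of any gene with an MHC role. Its 1 probe lies at chr17:34230824-34230870 and has 44.7% G and C, against a median of 36.7% over all autosomal probes.

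H2-Eb2 encodes a class II beta chain related to that of H2-Eb1. Its ratios were 1.35, 0.76, 0.22 and 0.42, so replicates 1 and 2 were higher than replicates 3 and 4. The mean was 0.69 ± 0.50 (SD, n = 4; limma, adjusted p = 0.0237). One of its 2 probes, with a mean of 1.08 ± 0.88, was dim, that is not well above background, in samples and pool on every array. The other probe gave 0.58, 0.17, 0.40 and 0.04 and was not past the threshold in the fit over probes (mean 0.30 ± 0.24; limma, adjusted p = 0.0698). Under the filter on dim probes, which refits and re-centres all genes, H2-Eb2 rested on that probe alone and passed, at 0.28 (limma, adjusted p = 0.0346). The call was lost without replicate 2.

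The other class II genes were not past the threshold. H2-Ab1, the beta chain of the I-A molecule, gave -0.15, -0.19, -0.17 and -0.08, with little spread (mean -0.15 ± 0.05, SD, n = 4; limma, adjusted p = 0.0954). It was past the threshold with normexp background correction, at -0.26 (limma, adjusted p = 0.00562), and with the deposited table, at -0.29 (0.0454), and near 0 with the regional median removed, at -0.0047. H2-Eb1, the beta chain of the I-E molecule, gave -0.18, -0.03, -0.05 and -0.25 (mean -0.13 ± 0.10; limma, adjusted p = 0.177). Its 3 probes gave -0.43, 0.06 and -0.02 in order of position, and the first of these passed the threshold as a probe. H2-Ea-ps, named for the alpha chain of I-E, was low on 3 arrays at -0.78, -0.61 and -0.72 and high on replicate 4 at 0.45. With that spread its mean of -0.42 ± 0.58 was not past the threshold (limma, adjusted p = 0.149), and its probe was above background in the samples on 1 array. Without replicate 4 it was past the threshold, at -0.70 (limma, adjusted p = 0.00725), and with normexp it was at -0.01.

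H2-Ke2 and H2-Ke6, which carry H2- names but encode no MHC chain, were both lower. H2-Ke2 gave -1.34, -0.80, -0.73 and -0.83, with replicate 1 far below the others. Its mean of -0.92 ± 0.28 was the lowest of the 31 genes (SD, n = 4; limma, adjusted p = 0.00233). H2-Ke6 gave -0.97, -0.55, -0.96 and -0.30, with a mean of -0.70 ± 0.33 (SD, n = 4; limma, adjusted p = 0.00716). Each has 1 probe with 46.9% G and C, the highest among the 56 probes. With a correction for GC content, added after seeing the data, H2-Ke2 was at -0.63, H2-Ke6 at -0.40 and H2-Oa at -0.45, all still past the threshold. Klraq1 gave 0.11 ± 0.07 over 4 probes and was not past the threshold (limma, adjusted p = 0.22).

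**Figure D2:**
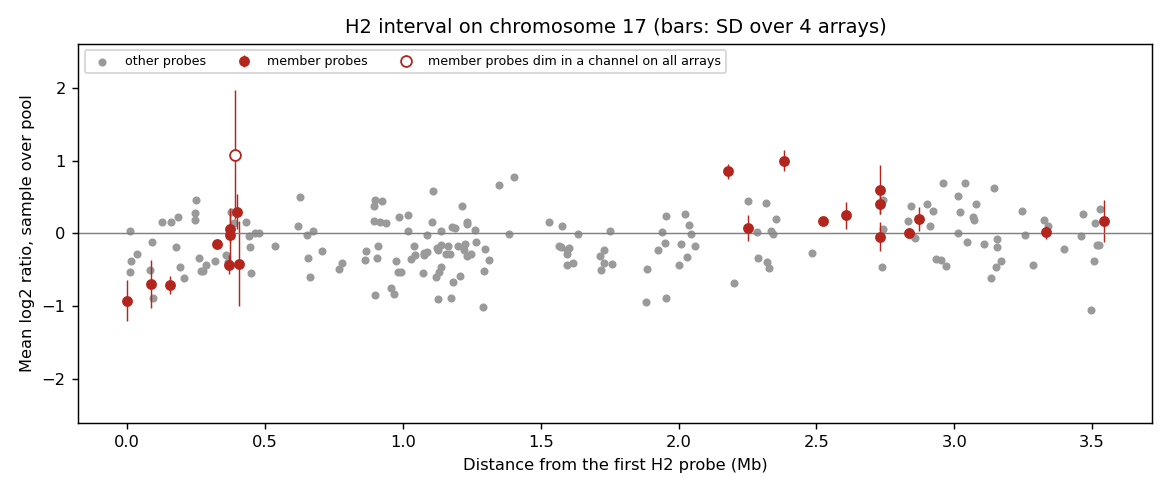
Mean log2 ratio over the 4 arrays (y axis) of every probe from the first to the last H2 probe on chromosome 17, against distance from the first H2 probe in Mb (x axis). Grey points are other genes' probes, red points are H2 probes with bars of 1 SD, and open red points are H2 probes dim in a channel on all arrays. The first 3 red points, H2-Ke2, H2-Ke6 and H2-Oa, lie at -0.92, -0.70 and -0.71, and H2-T10 and H2-M10.1 stand highest among the filled red points.

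The 3 lowest H2 genes were the first 3 in position, from 34076474 to 34230870, and the class Ib genes lay further along. From the first to the last H2 probe, chr17:34076474-37618322, the array held 209 probes. Their median was -0.11, -0.14, -0.12 and -0.11 on the 4 arrays, against a median of -0.02 ± 0.02 (SD, n = 4) over the other probes of chromosome 17. The difference, -0.10 ± 0.03, had 1 sign on all 4 arrays, and it was -0.05 with the GC correction. Of the 187 probes of other genes there, 12.8% were higher and 32.1% lower. Of the 22 H2 probes 5 were higher and 4 lower, which is 22.7% and 18.2%. Over all autosomal probes 18.2% were higher and 18.8% lower. As a description, with no test, the share of higher H2 probes was above that of the probes around them and near that of all autosomal probes. Among the 5 higher probes was a probe of H2-Eb2 that was dim in both channels on every array.

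Of the 14 Klr genes, 3 were higher and 5 were lower, which is 57.1% beside 35.4% of all autosomal genes. All 3 Ly49 genes passed, each with more than 1 probe, where 30.7% of all autosomal genes did. None of the 3 kept its call under all 14 processing alternatives. The Ly49 genes encode receptors that mostly bind class I molecules. Klra22 gave -0.42, -0.27, -0.36 and -0.47, a tight group of low values. Its mean was -0.38 ± 0.09 (SD, n = 4; limma, adjusted p = 0.00632), a ratio of 0.77 to the pool. This mean hides probes on both sides of 0 with a range of 2.10 on the log2 scale, the widest of the 31 genes. The median range was 0.63 over the 14 genes with 2 or more probes and 0.44 over all such autosomal genes.

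The 8 Klra22 probes spread over 329 kb, chr6:129999160-130328632. They share the name by the array's design, and whether all of them lie in a single gene was not checked. The mean for Klra22 is thus a mean over probes of that name. Probes 1 and 2, at the lower end of the coordinates, gave 0.36 ± 0.28 and 0.48 ± 0.04. Probe 3 gave -1.50, -1.18, -1.47 and -1.47, with a mean of -1.40 ± 0.15. Its signal in the pool was 590 to 653 and in the samples 218 to 253, where it was not well above background on any array. This probe was thus well above background in the pool alone, and the samples were at least 2.20-fold lower. Such a bound sets the dim channel, on each array, at the higher of its own signal and the lowest signal counted as well above background, and it is open to dye bias.

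Probe 4, the one with the fewest G and C at 26.7%, was dim in samples and pool on every array and its mean of 0.47 ± 0.55 compares dim signals. Probe 5 gave -0.72, -0.68, -1.04 and -1.08, with a mean of -0.88 ± 0.21. It was well above background in both channels on every array, with sample signals of 791 to 970 against 1502 to 1811 in the pool. Its lower value is thus a measured one and not a bound. It has 45.8% G and C, against a median of 36.7% over all autosomal probes, and its value with the GC correction is not given here. Probe 6 gave -0.51, -0.81, -0.34 and -1.23, with a mean of -0.72 ± 0.39. It was above background on 1 array in the samples and on all 4 in the pool.

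Probe 7 was the lowest of the 56 probes, at -1.32, -1.48, -1.25 and -2.46, with a mean of -1.63 ± 0.56. It was not well above background in the samples on any array and was so in the pool on all of them, and the samples were at least 2.20-fold lower. Probe 8, at the upper end, gave -0.45, 0.48, 0.72 and 0.39 and had no single sign. Taken as single probes in a limma fit over all autosomal probes, Klra22 had 4 lower probes and 1 higher probe past the threshold. The limma adjusted p-values of the lower probes were 0.000516 for probe 3, 0.00215 for probe 5, 0.0107 for probe 6 and 0.0024 for probe 7. These 4 probes lie within 115 kb, chr6:130146698-130261266, with the dim probe 4, at 0.47, among them. Probe 5 alone of the 4 was well above background in both channels on every array. The probes on either side of this stretch lay above the pool in the mean. The stretch was chosen after its values were seen and gets no test of its own.

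**Figure D3:**
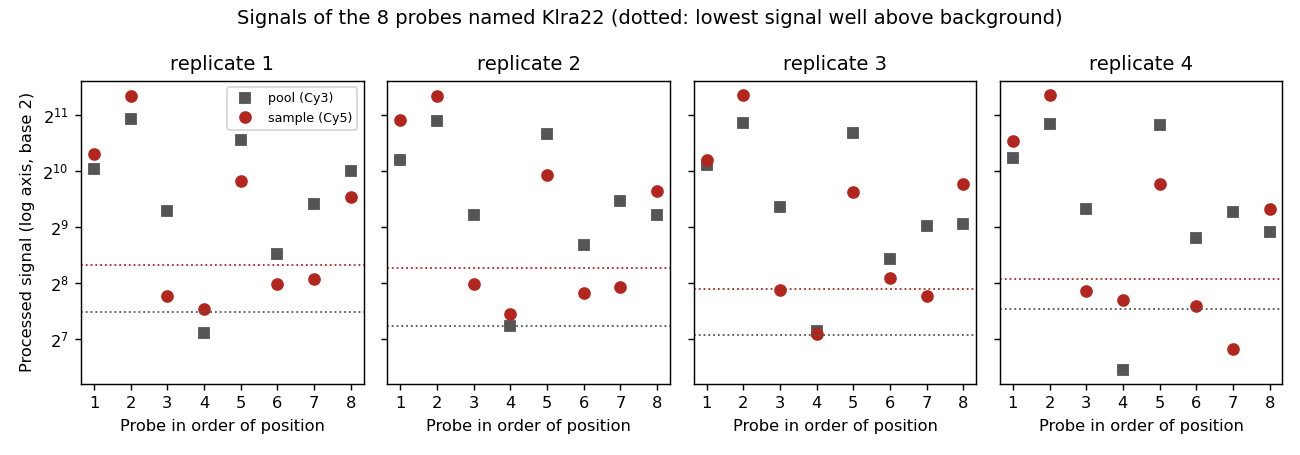
Processed signal (y axis, log scale of base 2) of the 8 Klra22 probes in order of position (x axis), with 1 panel per replicate, grey squares for the pool and red circles for the sample. Dotted lines mark the lowest signal well above background in each channel. The red circles of probes 3 and 7 lie below the red line in all 4 panels while their grey squares lie well above the grey line.

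A filter that keeps only probes well above background in both channels on all arrays left 4 of the 8 Klra22 probes. It moved the gene to 0.04 (limma, adjusted p = 0.658), because it removed probes 3, 4, 6 and 7 and kept probe 5. The gene's call therefore rests on probes that are dim in the samples. GC correction left the gene at -0.35 (limma, adjusted p = 0.00893), and normexp moved it to -0.17, inside the size limit.

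Klra2, which encodes the receptor Ly49B of myeloid cells, gave -0.35, -0.38, -0.96 and -0.22. Replicate 3 was lower than the others, and the mean was -0.48 ± 0.33 (SD, n = 4; limma, adjusted p = 0.0245). The call was lost without replicate 1 or replicate 2. The probe starting at 131196197 was even, at -0.42, -0.31, -0.48 and -0.41, and was past the threshold. The other, starting at 131178278, ranged from -0.04 to -1.43 and was dim in the samples on every array. It was not past the threshold as a probe (limma, adjusted p = 0.0804). Its bound, a mean over the arrays, was at least 1.11-fold lower. On replicate 4 no bound held, since the pool signal of 253 lay under 268, the lowest sample signal well above background there.

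Klra17 encodes Ly49Q, a receptor known from plasmacytoid dendritic cells. It was the one Ly49 gene that was higher, at 0.30, 0.33, 0.29 and 0.17, with a mean of 0.27 ± 0.07 (SD, n = 4; limma, adjusted p = 0.0166). Its probes disagreed, at -0.10 ± 0.26 for the one starting at 129783711 and 0.64 ± 0.15 for the one starting at 129815717. The gene lies close to the size limit of 0.25, and its call was lost under 7 of 14 alternatives.

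The other 10 NK receptor genes gave 2 higher and 3 lower, that is 5 of 10 beside 35.4% of all autosomal genes. Both higher genes belong to the Klrb1 family, whose receptors bind lectin-like ligands of the Clec2 family. Klrb1f gave 0.71, 0.79, 0.73 and 0.92, and its mean of 0.79 ± 0.09 (SD, n = 4; limma, adjusted p = 0.00105) was the highest of the Klr genes. Both of its probes were higher, at 1.09 ± 0.22 and 0.48 ± 0.14. Both were well above background in both channels on every array.

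Klrb1c encodes the NK1.1 antigen used to identify NK cells in some strains. It gave 0.58, 0.65, 0.44 and 0.44 from 1 probe, all above the pool, with a mean of 0.53 ± 0.10 (SD, n = 4; limma, adjusted p = 0.00275). Klrb1a, of the same family, was not past the threshold, with values of -0.57, -0.20, -0.16 and -0.07 (mean -0.25 ± 0.22; limma, adjusted p = 0.0741). Its lower value came from 1 probe, at -0.60 ± 0.45, that was above background in the samples on 2 arrays, while its other probe gave 0.10 ± 0.05. With the filter on dim probes Klrb1a rested on that other probe alone, at 0.078, and was not past the threshold (limma, adjusted p = 0.309).

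Klrd1 encodes CD94, the partner chain of the NKG2 receptors. It gave -0.45, -0.27, -0.81 and -0.44, low on every array, with a mean of -0.49 ± 0.23 (SD, n = 4; limma, adjusted p = 0.00945). The probe starting at 129543549 gave -0.73 ± 0.26, and the other, starting at 129546854, gave values from -1.19 to 0.37. Neither was above background in the samples on all arrays, so the filter on dim probes left Klrd1 without a value. With normexp background correction it was at -0.16 and its call was lost (limma, adjusted p = 0.0532). Its partners Klrc1 (NKG2A) and Klrc3 (NKG2E) were not past the threshold, at 0.16 ± 0.13 and -0.0008 ± 0.35 (each SD, n = 4; limma, adjusted p = 0.134 and 0.996). Klrc1 was past the threshold at 0.33 with the GC correction (limma, adjusted p = 0.0166).

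Klrk1 encodes NKG2D, an activating receptor for stress-induced class I-like ligands. It gave -0.35, -0.52, -0.23 and -0.21, with a mean of -0.33 ± 0.14 (SD, n = 4; limma, adjusted p = 0.0166). One of its 2 probes, at -0.53 ± 0.13, was dim in the samples on every array and at least 1.21-fold lower. The other gave -0.13 ± 0.40, with replicates on both sides of 0. Without the dim probe the gene was at -0.15 and not past the threshold (limma, adjusted p = 0.409). The call was also lost with normexp, at -0.05 (0.49), with slide means and without replicate 1 or 2.

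Klrg1 encodes an inhibitory receptor for cadherins and lies apart from the other NK receptor genes, at chr6:122221112-122232540. It gave -0.46 and -0.44 on the first slide and -0.11 and -0.18 on the second, with a mean of -0.30 ± 0.18 (SD, n = 4; limma, adjusted p = 0.0319). Its 3 probes gave -0.32, -0.75 and 0.19, a range of 0.94 that was second to Klra22. The middle one was dim in the samples on every array. Klrg1 was the least stable of the 15 genes and kept its call under 6 of 14 alternatives.

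Klre1 and Klri2 encode chains of NK receptor pairs. Klre1 gave 0.12 ± 0.24 and Klri2 gave -0.12 ± 0.15, neither past the threshold (limma, adjusted p = 0.38 and 0.254). The 2 Klri2 probes gave 0.28 and -0.53, a range of 0.81 that came after those of Klra22 and Klrg1. The lower of them was dim in the samples on every array and was not past the threshold as a probe (limma, adjusted p = 0.0763), at 0.30 on replicate 1 and -0.90 to -0.67 on the others. Without it the gene was at 0.27.

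**Figure D4:**
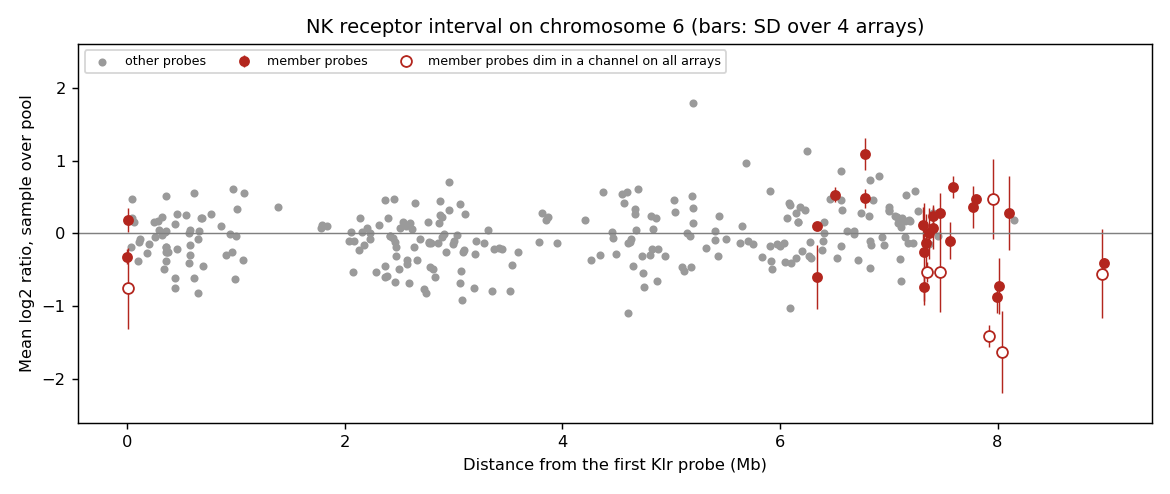
Mean log2 ratio over the 4 arrays (y axis) of every probe from the first to the last Klr probe on chromosome 6, against distance from the first Klr probe in Mb (x axis), with symbols as in the plot of the H2 interval. The lowest points, at -1.40 and -1.63, are open red points, probes 3 and 7 of Klra22.

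From the first to the last Klr probe on chromosome 6, chr6:122221112-131196256, the array held 298 probes. Their per-array median was -0.03 ± 0.03, against 0.02 ± 0.01 over the rest of the chromosome, and the difference of -0.05 ± 0.03 (SD, n = 4) had 1 sign on all arrays. Of the 268 probes of other genes there, 43 were higher and 53 lower. Of the 30 Klr probes 5 were higher and 10 lower, which is 16.7% and 33.3%, beside 18.2% and 18.8% of all autosomal probes. The Klr probes thus had a larger share of lower values than the probes around them, as a description with no test. Klra22 alone gave 4 of the 10 lower ones. Among these 10, only probe 5 of Klra22 and a probe each of Klrg1 and Klra2 were well above background in both channels on every array.

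Of all 56 probes, 25 passed the threshold in the fit over probes, 11 higher and 14 lower. That is 44.6%, beside 36.9% of all autosomal probes (18.2% higher and 18.8% lower). The families differed in how many probes were dim in the samples. Not well above background in the samples on any array were 7 of 34 Klr probes (20.6%) and 1 of 22 H2 probes (4.55%), beside 6.37% of all autosomal probes. Among these, 6 Klr probes and no H2 probe were dim in the samples alone and not in the pool on every array. The median GC content, 36.7%, was the same as over all autosomal probes. With only probes well above background in both channels on every array, 11 of the 27 genes with a value passed, 7 higher and 4 lower, beside 39.4% of all genes tested so (18.3% higher and 21.1% lower).

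Shared sequence was checked within the array, as paralogous genes can share probe sequence. Of the 56 probes, 9 shared a stretch of 16 bases with another probe of the array, and none shared one with a probe of another of the 31 genes. Sequence shared with the genome outside the probes was not analysed here. How many Ly49 or class I copies a probe binds was therefore not tested.

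Between the slides, none of the 31 genes differed at an adjusted p under 0.05 in limma (0 of 20445 autosomal genes, 0.00%). At an unadjusted p under 0.05 there were 3, namely H2-Eb2, H2-M2 and Klrg1, beside 2207 of all genes (10.8%). Slide 2 minus slide 1 was -0.74 for H2-Eb2, -0.50 for H2-M2 and 0.30 for Klrg1. Each slide held different samples, so slide and sample cannot be told apart.

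The other genes of both systems were read from 2 lists. Of 22 genes of antigen processing 19 were measured, with 3 higher, 5 lower and a median of -0.10. That is 42.1% past the threshold, near the 35.4% of all autosomal genes (16.1% higher and 19.3% lower). Tap1 and Tap2 encode both chains of the transporter that carries peptides to class I molecules, and both lie within the H2 interval. Tap2 gave -0.63, -0.44, -0.42 and -0.59, and was lower (mean -0.52 ± 0.10, SD, n = 4; limma, adjusted p = 0.00287). Tap1 gave 0.33, 0.28, 0.94 and 0.27, and was higher (mean 0.46 ± 0.32, SD, n = 4; limma, adjusted p = 0.0279). The Tap1 call was lost with the deposited table (limma, adjusted p = 0.0854), without replicate 1 (0.0594) and without replicate 2 (0.0509), and without replicate 3, its highest array, the mean was 0.30. Tap2 kept its call there, at -0.82 with the deposited table, and was at -0.27 with the GC correction, where Tap1 was at 0.74. Rfxap, a subunit of the factor that binds class II promoters, gave 0.49, 0.28, 0.23 and 0.73 (mean 0.43 ± 0.23; limma, adjusted p = 0.0145). One of its 2 probes was above background on 2 arrays, in samples and in pool. The Rfxap call was lost with the filter on dim probes, at 0.21 (limma, adjusted p = 0.0918), and without replicate 1 (0.0521).

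Of 24 genes of NK receptor ligands, adaptors and further receptors 17 were measured, with 3 higher, 4 lower and a median of 0.01. That is 41.2%, again near the 35.4% of all autosomal genes. Clec2d encodes a ligand of Klrb1 receptors and lies within the Klr interval. It gave 0.58, 0.84, 0.96 and 0.77, above the pool on every array (mean 0.79 ± 0.16, SD, n = 4; limma, adjusted p = 0.00155). Clec2d had 1 probe. The other measured Clec2 genes, also within the interval, were near 0 and not past the threshold. Clec2e gave -0.12, Clec2g 0.01, Clec2h 0.02 and Clec2i 0.03. H60c and Raet1a encode ligands of NKG2D. H60c gave -0.71, -0.58, -0.87 and -0.80 (mean -0.74 ± 0.12; limma, adjusted p = 0.00142), and Raet1a gave -0.55, -0.64, -0.52 and -0.60 (mean -0.58 ± 0.05; limma, adjusted p = 0.00167). Both ligand genes, with 1 probe each, and Klrk1, the gene of their receptor, were lower than the pool. Klrk1 kept its call under only 9 of 14 alternatives, and a link between the 3 values was not tested.

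Of the 15 genes past the threshold, 7 kept their call under all 14 processing alternatives. These were H2-M10.1, H2-T10, H2-Oa, H2-Ke2, H2-Ke6, Klrb1f and Klrb1c, of which all but Klrb1f rest on 1 probe each. With 1 probe, the median over probes is the same value as the mean. All probes of these 7 genes were well above background in both channels on every array, so the filter on dim probes removed none. Those alternatives thus put genes with 1 probe to less of a test than genes with more probes. H2-M10.1 ranged from 0.69 to 1.07 over the alternatives, H2-T10 from 0.60 to 1.11 and H2-Oa from -0.78 to -0.43. Klrb1f ranged from 0.55 to 0.83 and Klrb1c from 0.32 to 0.67. No lower Klr gene kept its call throughout.

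The count of the 31 genes past the threshold is set here beside the share over all genes for the settings that moved it most and for the deposited table. It was 8 at a size limit of 0.5 in place of 0.25, beside 11.7% of all genes. It was 18 with the GC correction, beside 32.8%, 16 with the deposited table, beside 37.1%, and 10 with normexp background correction, beside 29.5%. With the mean of each slide as a sample it was 11, beside 25.2%. Without replicate 1 it was 10, beside 27.1%, and without replicate 2 it was 9, beside 26.7%.

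**Figure D5:**
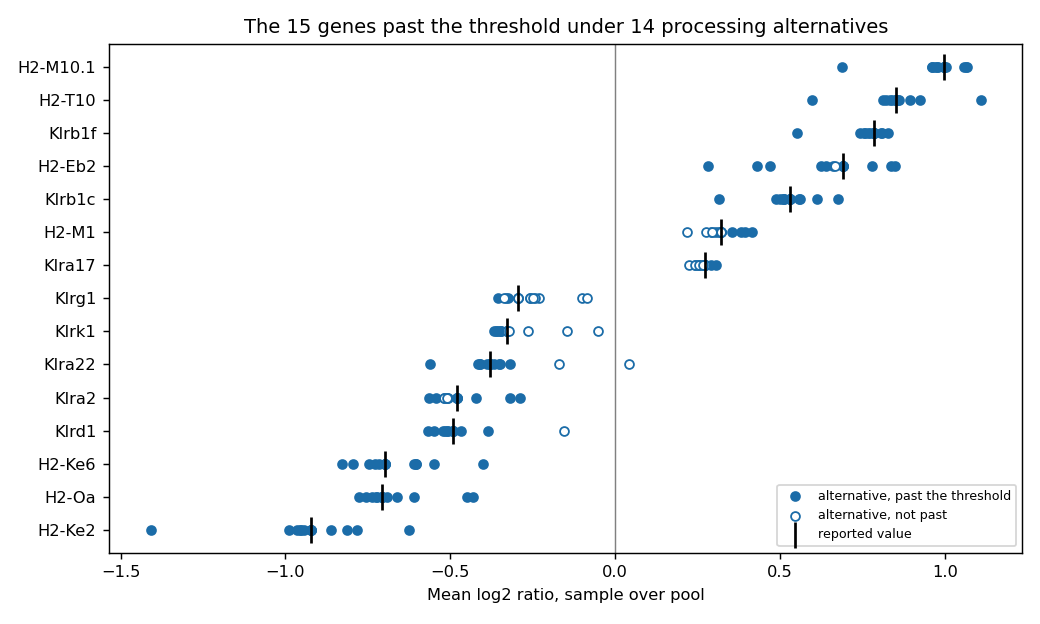
Mean log2 ratio of sample over pool (x axis) of the 15 genes past the threshold (y axis), with a black bar at the reported value and 1 circle for each processing alternative, filled where the gene stayed past the threshold. All circles of H2-M10.1, H2-T10, Klrb1f, Klrb1c, H2-Ke6, H2-Oa and H2-Ke2 are filled, and 1 circle of Klra22 lies on the other side of 0, at 0.04.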

How the data were processed

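The members and gene lists were chosen with earlier results of these data known. Per the labels' protocols, a Qiagen kit gave the DNA from FFPE sections, and an Enzo kit labelled 250 ng of it. The authors' scanner files hold intensity values from Agilent Feature Extraction 10.10.1.1. Background subtraction, detrending and linear dye normalisation, with surrogates in place of dim signals, came before the processed intensities, per the file headers. Probe positions are on mm9:NCBI37:Jul2007. The deposited log10 ratios, Cy5 over Cy3 per the file headers, served as a check. A deposited log2 table served as an alternative. It correlated at 0.91 to 0.92 with the same array and at most 0.69 with any other, with column medians of -0.035, 0.029, 0.052 and 0.005. Its direction and scale were read from this, and its normalisation within arrays is unknown.

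Control and outlier-flagged spots were left out, replicate spots of a probe averaged, and log2 ratios centred on each array's autosomal median, with no loess or quantile step. Genes and probes were tested against 0 with limma 3.58.1 under R 4.3.3, using lmFit and eBayes, with Benjamini-Hochberg adjustment over all autosomal genes or probes. The fit was tested on simulated data. Genes were named by rule, namely up to 5 highest and 5 lowest members past the threshold per family, 13 defining members, the 3 members with the widest probe range and the 3 largest past the threshold of each pathway list. The remaining members are given so that each is accounted for. Names follow the array's design. Alternatives were normexp background correction (offset 50), the deposited table, a filter on dim probes, mode centring, removal of a regional median of 100 probes on either side, slide as a random block, slide means, outliers kept, the median over probes and each array left out. A lowess correction for GC content and the omission of H2-Ke2, H2-Ke6 and Klraq1 were added after seeing the data. Exon and intron annotation of mm9 was not used here.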

Additional observations from a re-analysis of the deposited data

Results flagged for a closer look

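In 4 of 39 values tested over the 4 arrays (the 31 genes, other named genes and interval values), 1 array stood apart from the rest by more than the critical value of Dixon's ratio for 4 values. Chance gives about 1 in 20. Replicate 4 of H2-Ea-ps lay at 0.447, while the other arrays gave -0.78 to -0.61. Replicate 1 of H2-Ke2 lay at -1.34, with the others at -0.83 to -0.73. Replicate 1 of Klri2 lay at 0.102, with the others at -0.21 to -0.18. Replicate 3 of Tap1 lay at 0.941, with the others at 0.27 to 0.33. No single array gave all of these values.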

How the results depend on the processing

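No paired analysis was possible because all samples belong to 1 group. Of the 31 genes, 15 were past the threshold, and 8 at a size limit of 0.5. The count ranged from 9 (without replicate 2) to 14 when 1 array was left out, and was 10 without replicate 1. Across the other settings it ran from 10 with normexp to 18 with GC correction. The antigen processing count of 8 was 5 with normexp, 5 with slide means, and 3 (without replicate 1) to 8 when an array was left out. The H2 interval difference was -0.048 with GC correction. Several values changed sign, all of genes not past the threshold in either setting except Klra22, at 0.043 with the dim filter. With normexp these were H2-T3 at -0.12, H2-M10.5 at -0.12, Klrc3 at 0.042 and Klri2 at 0.10. With the deposited table they were H2-T3 at -0.0045, H2-M10.5 at -0.073 and Klrc3 at 0.0090. With the dim filter they were H2-M10.5 at -0.0091, Klri2 at 0.27 and Klrb1a at 0.078. With mode centring H2-M3 was at -0.014 and H2-M10.5 at -0.021, with GC correction H2-M10.5 was at -0.047, and with the regional median removed H2-Eb1 was at 0.020. With 1 array left out, H2-M3 ranged from -0.0098 to 0.054, H2-M10.5 from -0.010 to 0.036 and Klrc3 from -0.12 to 0.11. The cause of these changes was not tested.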
